A study of Homo sapiens with 16 samples.

Results

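Chromosome 2 held 5293 of the 44922 TOP2B intervals in 4 lists from PC9 cells, and its intervals are described here along the chromosome. An interval is a stretch of DNA in which CUT&RUN, an assay that cuts and releases the DNA around an antibody's target, gave a called peak. All intervals listed on chromosome 2 were taken, without regard to height or width, and each was assigned by its midpoint to 1 of 49 windows of 5 Mb on the GRCh37 build. PC9 is an established human lung adenocarcinoma line that depends on mutant EGFR. The 4 conditions were METTL7A knockout cells under osimertinib, untreated METTL7A knockout cells, wild-type cells under osimertinib and untreated wild-type cells. Osimertinib, an EGFR inhibitor, was given over 6 to 8 weeks in doses that rose from 100 nM. Each condition had 2 TOP2B libraries, and the authors deposited 1 list made from them. A list thus has no replicate, conditions could not be tested against each other, and all confidence intervals below cover counting error only. The sources used here do not say whether the knockout cells were a single clone or whether the replicate libraries came from separate cultures, and the genotype was not checked at the METTL7A locus.

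TOP2B is a type II topoisomerase. It cuts both strands of a DNA duplex, passes another duplex through the break and reseals it, which relieves the torsion that transcription and chromatin loops create. It is known to sit at active promoters and enhancers and at loop anchors that bind CTCF and cohesin, and breaks that are not resealed can seed rearrangements. METTL7A belongs to a family of methyltransferase-like proteins. Chromosome 2 arose by fusion of a pair of ancestral ape chromosomes, and it carries MYCN and ALK, oncogenes of its short arm, and the HOXD developmental cluster of its long arm. Which intervals lie at these or other genes was not examined, because an annotation and a genome of the GRCh37 build were not used here. For the same reason no sequence is given.

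The chromosome 2 intervals numbered 774 for treated knockout, 1356 for untreated knockout, 1208 for treated wild type and 1955 for untreated wild type. These were 10.3% (95% interval 9.65 to 11.0), 10.9% (10.3 to 11.4), 12.5% (11.9 to 13.2) and 12.8% (12.3 to 13.3) of the lists of 7493, 12493, 9655 and 15281 intervals. The wild-type lists thus had the larger shares, and the confidence intervals of the treated and the untreated list overlapped in each genotype. By number of intervals chromosome 2 stood in place 4 among the chromosomes in treated knockout, place 3 in untreated knockout and place 2 in both wild-type lists. Summed over intervals, the covered length was 907 kb in treated knockout, 2314 kb in untreated knockout, 1502 kb in treated wild type and 5645 kb in untreated wild type. Their median width was 1150 bp (interquartile range 800 to 1450) in treated knockout, 1625 bp (1250 to 2100) in untreated knockout, 1200 bp (950 to 1450) in treated wild type and 2500 bp (1900 to 3450) in untreated wild type. Those medians were within 100 bp of the medians of the other chromosomes in the same lists, which were 1150, 1700, 1200 and 2600 bp. The lists give no library depth and differ in how broad their peaks were, so shares of a list rather than numbers are compared below.

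Intervals were crowded into a few stretches of the chromosome. Of the 49 windows, 12 were empty in all 4 lists and 28 held an interval in all 4. The 5 fullest windows held 69.1% of the chromosome 2 intervals for treated knockout, 60.0% for untreated knockout, 61.6% for treated wild type and 56.8% for untreated wild type. No list had an interval between 135464701 and 171672400, a stretch of 36.2 Mb, or between 185252451 and 215672900, a stretch of 30.4 Mb. The occupied island between these empty stretches spans the 3 windows from 170 to 185 Mb and the edge of the next. A shorter empty stretch of 5.05 Mb, from 226682651 to 231736250, lay within the otherwise dense end of the long arm. An empty window says that no peak passed into the list there, and does not measure zero signal.

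**Figure D1:**
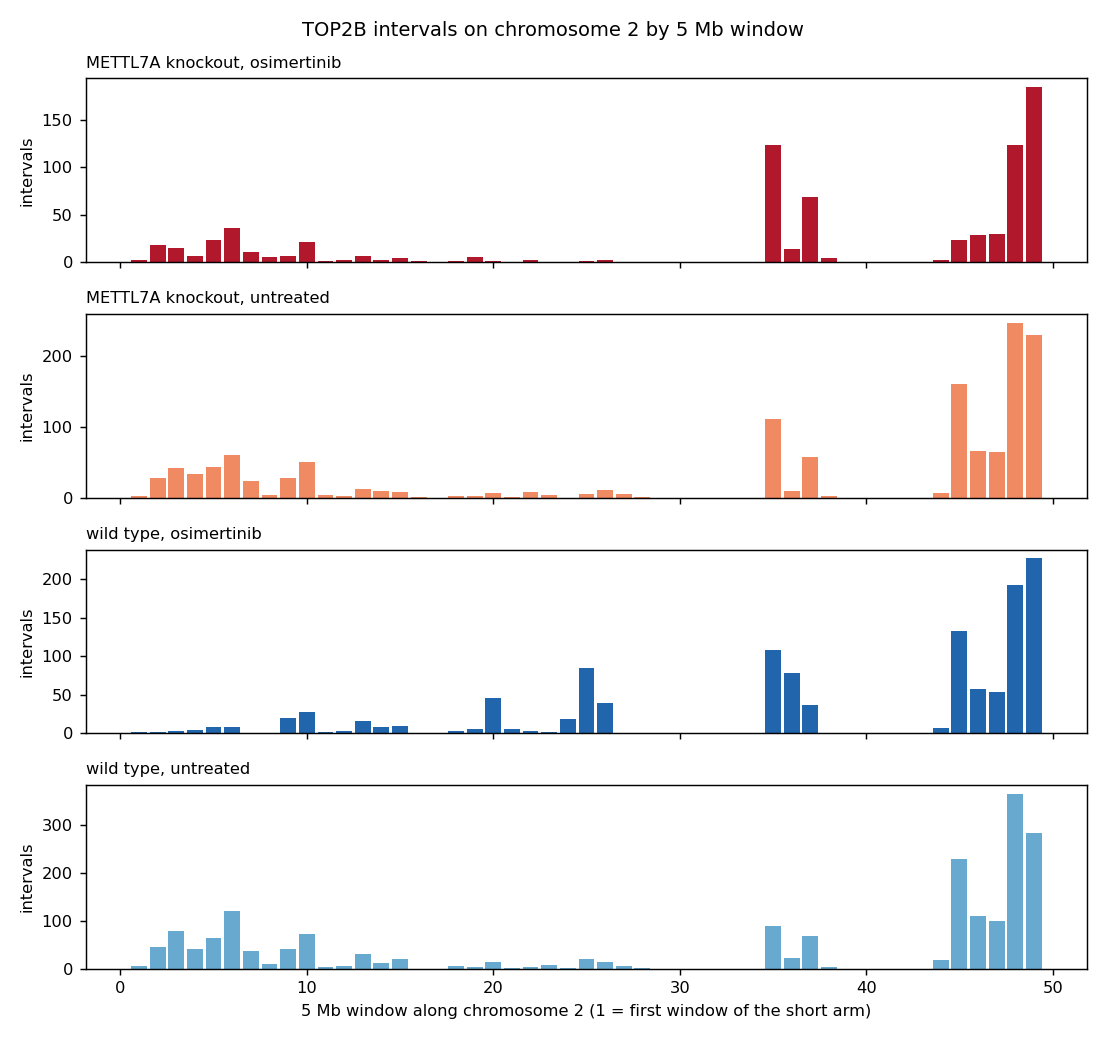
Number of TOP2B intervals (y axis, scaled separately per panel) in each of 49 consecutive 5 Mb windows of chromosome 2 (x axis, window 1 at the tip of the short arm), 1 panel per list. One of the last 2 windows is the fullest in every list, and treated wild type alone has fewer than 10 intervals in each of windows 2 to 7 and more than 30 in windows 20, 25 and 26.

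The end of the long arm held the most intervals in every list. The window from 240 Mb to the end held 184 intervals for treated knockout, 229 for untreated knockout, 227 for treated wild type and 283 for untreated wild type. The window from 235 to 240 Mb held 123, 247, 192 and 366 intervals in the same order. Set among all windows of the genome with an interval, the last window had place 12 of 303 in treated knockout, place 14 of 327 in untreated knockout, place 3 of 323 in treated wild type and place 12 of 340 in untreated wild type. Neighbouring intervals there were a median of 10.45 kb apart in treated knockout, 9.2 kb in untreated knockout, 7.4 kb in treated wild type and 5.25 kb in untreated wild type, taken from 225 Mb to the end.

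For the comparisons, windows were joined into 6 blocks, and this joining was chosen after the window counts had been seen. The blocks are the distal short arm (5 to 35 Mb), the middle short arm (35 to 75 Mb), the proximal long arm (95 to 130 Mb), the middle long arm (170 to 190 Mb), the subterminal long arm (220 to 225 Mb) and the terminal long arm (225 Mb to the end). A share ratio divides a block's share of 1 list by its share of the other, and a ratio of at least 2 in either direction was counted as a difference. For single windows the same was asked of those with at least 20 intervals in either list, with 0.5 added to each count. A window sparse in 1 list could thus enter only through the other, so its ratio is not separate support for a block. An alternative counted only intervals whose called peak had at least the median maximum coverage of its list. Each piece of a split peak then counted, fewer intervals entered, and no confidence interval was computed.

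**Figure D2:**
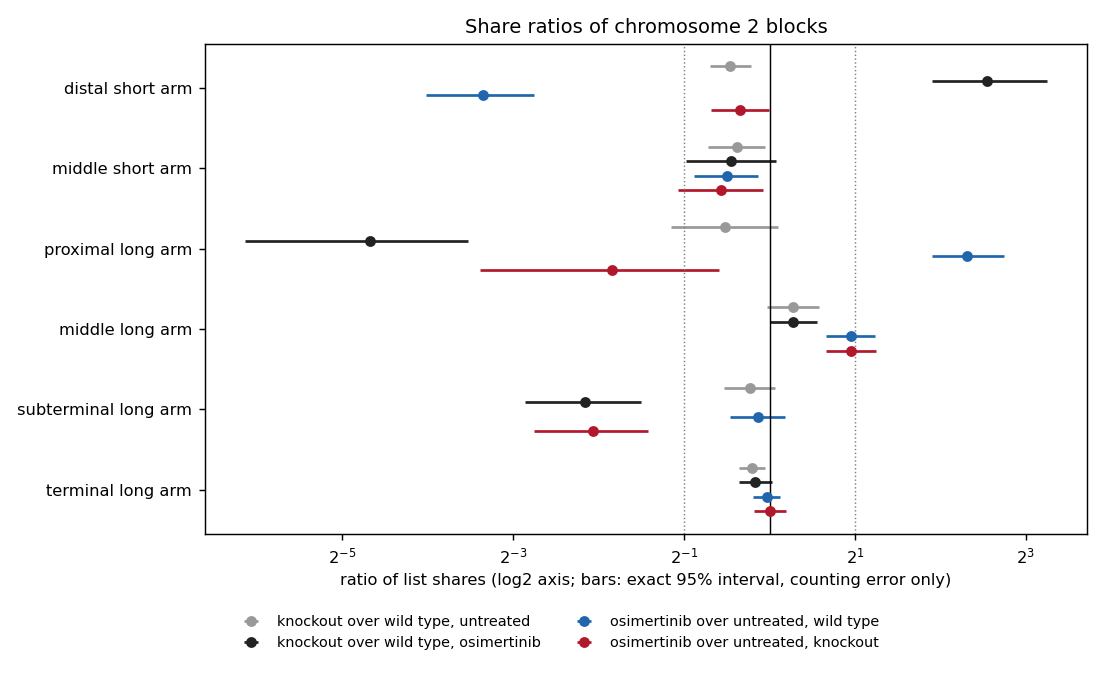
Ratio of list shares (x axis, log2 scale) for the 6 blocks of chromosome 2 (y axis) in the 4 comparisons, each with its exact 95% interval for counting error; dotted lines mark 2-fold. Points lie past 2-fold in the distal short arm, the proximal long arm and the subterminal long arm, and the terminal long arm lies between 0.865 and 1.01, though with only peaks of at least the median maximum it was 0.576 for treated knockout over treated wild type and 0.646 for the untreated lists.

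Osimertinib-treated wild-type cells differed from untreated wild-type cells in opposite directions at the start of the short arm and at the start of the long arm. In the distal short arm there were 24 intervals under treatment and 389 without it, a share ratio of 0.0976 (0.0618 to 0.147). The proximal long arm showed the reverse, with 198 treated and 63 untreated intervals and a ratio of 4.97 (3.73 to 6.71). When only called peaks of at least their list's median maximum were counted, these ratios were 0.0614 and 36.4. The 63 untreated intervals of the proximal long arm had a median maximum of 0.75 times that of their list. Most of them thus did not enter, and the 36.4 rests on few untreated intervals. The middle long arm held 223 and 183 intervals, a ratio of 1.93 (1.58 to 2.36). The subterminal long arm (132 and 230, ratio 0.908, 0.728 to 1.13) and the terminal long arm (529 and 858, ratio 0.976, 0.874 to 1.09) had nearly the same share of both lists.

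By single windows, 4 of 21 examined on chromosome 2 (19.0%) were past 2-fold upward in treated wild type, and 6 (28.6%) downward. Over all chromosomes the same was true of 31.3% and 33.0% of 179 windows, so chromosome 2 had no larger part of such windows than the whole lists. The 6 windows with a lower share were the 6 consecutive windows from 5 to 35 Mb, and all entered through untreated wild type alone. The lowest was 30 to 35 Mb, with 0 intervals in treated wild type and 38 in untreated wild type. A count of 0, read as up to 3, allows a share of up to 0.0311% of the treated list. With 3 counts in place of 0 the share would be 8.00-fold lower, which leaves out the counting error of the untreated list. The exact interval of the ratio, which takes in the counting error of both lists, reaches up to 0.161. Next came 5 to 10 Mb, with 1 treated and 46 untreated intervals (ratio 0.0344, 0.000853 to 0.202), and 10 to 15 Mb, with 3 and 78 (0.0609, 0.0123 to 0.185). The 4 windows with a higher share were 95 to 100, 120 to 125, 125 to 130 and 175 to 180 Mb. The windows at 95 to 100 and 125 to 130 Mb entered through treated wild type alone. Those with the highest ratios were 120 to 125 Mb, with 85 treated and 20 untreated intervals (6.73, 4.10 to 11.6), 175 to 180 Mb, with 78 and 22 (5.61, 3.46 to 9.46), and 95 to 100 Mb, with 46 and 15 (4.85, 2.66 to 9.36). Within the window from 120 Mb the intervals were concentrated at 121 to 122 Mb, where treated wild type had 64 and untreated wild type 18.

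In METTL7A knockout cells, the treated list differed from the untreated one by more than 2-fold in the subterminal and the proximal long arm, both with lower shares. The subterminal long arm held 23 intervals in treated knockout and 160 in untreated knockout, a share ratio of 0.240 (0.148 to 0.372), or 0.144 by numbers not divided by the list total. Most of these lay at 222 to 225 Mb, where the 3 windows of 1 Mb held 7, 6 and 10 intervals in treated knockout and 51, 49 and 59 in untreated knockout. The proximal long arm held 6 and 36 intervals (0.278, 0.0957 to 0.666). In the distal short arm, almost empty in treated wild type, treated knockout had 109 intervals and untreated knockout 231, a ratio of 0.787 (0.621 to 0.992), or 0.472 by numbers. The middle long arm held 210 and 181 intervals, a ratio of 1.93 (1.58 to 2.37), as far above equality as in wild type. The ratio was 2.04 by covered length, 2.03 by share of the chromosome 2 intervals and 2.23 with only peaks of at least the median maximum. It was 1.90 by called peaks and 1.16 by numbers. The middle short arm held 49 and 121 intervals (0.675, 0.474 to 0.948), a ratio of 0.306 with only peaks of at least the median maximum and 0.833 by called peaks. The terminal long arm held 366 and 607 intervals (1.01, 0.881 to 1.15).

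Of 15 windows examined for the knockout, 0 were past 2-fold upward in the treated list and 3 (20.0%) downward. Over all chromosomes the figures were 3.67% higher and 9.17% lower, of 109 windows. The 3 windows were 220 to 225 Mb, already given, 15 to 20 Mb with 6 treated and 33 untreated intervals (0.303, 0.104 to 0.733), and 40 to 45 Mb with 7 and 28 (0.417, 0.154 to 0.977). The windows at 15 to 20 and 40 to 45 Mb entered through untreated knockout alone. The highest ratios were 1.98 (1.38 to 2.86) at 180 to 185 Mb, from 69 and 58 intervals, and 1.85 (1.42 to 2.41) at 170 to 175 Mb, from 123 and 111. The third-highest, from 240 Mb to the end, was 1.34 (1.10 to 1.63). The window from 180 Mb was past 2-fold upward by called peaks (1.15 on the log2 scale), by covered length (1.07), with only peaks of at least the median maximum (1.15) and by share of the chromosome 2 intervals (1.06), and the window from 170 Mb was with such peaks (1.17).

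Without drug, knockout and wild type were close in their distribution along chromosome 2, and no block was past 2-fold. Block ratios of untreated knockout to untreated wild type ran from 0.699 in the proximal long arm (36 and 63 intervals, 0.451 to 1.07) to 1.21 in the middle long arm (181 and 183 intervals, 0.980 to 1.49). Counting only called peaks of at least the median maximum turned the direction in the middle short arm, where the ratio was 2.12 in place of 0.767, and in the proximal long arm, where it was 2.99. The 2.99 rests on few wild-type intervals. Of 19 windows examined, 0 were past 2-fold upward in the knockout and 1 (5.26%) downward, beside 3.33% and 17.3% of 150 windows over all chromosomes. That window was 120 to 125 Mb, with 5 intervals in the knockout and 20 in wild type (0.306, 0.0897 to 0.840). It entered the windows examined through wild type alone, where it just reached the minimum of 20. It was not past 2-fold with only called peaks of at least the median maximum (-0.71 on the log2 scale), and 0 windows were past 2-fold with windows of 2.5 or 10 Mb. The next lowest ratio was 0.489 (0.186 to 1.16) at 70 to 75 Mb, from 8 and 20 intervals, and then 0.530 (0.254 to 1.05) at 60 to 65 Mb, from 13 and 30. With the added count the first of these was 0.507, so it was not counted. Both turned direction when only called peaks of at least the median maximum were counted, to 2.58 at 70 to 75 Mb and 0.60 at 60 to 65 Mb on the log2 scale. The highest were 1.53 at 170 to 175 Mb (111 and 89 intervals, 1.14 to 2.04), 1.04 at 180 to 185 Mb (58 and 68) and 0.990 from 240 Mb to the end (229 and 283).

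Under osimertinib, knockout and wild type were more than 2-fold apart in the distal short arm, the proximal long arm and the subterminal long arm, and in 9 of 15 windows examined, beside 75.2% of 137 windows over all chromosomes. Treated knockout had the higher share in 3 of them (20.0% of those examined, beside 26.3%) and the lower share in 6 (beside 48.9%). The distal short arm held 109 intervals in treated knockout and 24 in treated wild type, a ratio of 5.85 (3.74 to 9.52), or 9.67 with only called peaks of at least the median maximum. Its highest window ratios were 5.80 (2.65 to 14.4) at 25 to 30 Mb, from 36 and 8 intervals, and 3.70 (1.60 to 9.58) at 20 to 25 Mb, from 23 and 8. Both entered through treated knockout alone. The third window with a higher share was 180 to 185 Mb, with 69 and 37 intervals (2.4, 1.59 to 3.69). The proximal long arm held 6 intervals in treated knockout and 198 in treated wild type (0.0390, 0.0142 to 0.0865, and 0.0113 with those peaks). The 3 lowest windows were all there: 120 to 125 Mb (1 and 85, ratio 0.0152, 0.000379 to 0.0868), 95 to 100 Mb (1 and 46, ratio 0.0280, 0.000694 to 0.164) and 125 to 130 Mb (2 and 39, ratio 0.0661, 0.00773 to 0.255). All 3 entered through treated wild type alone, and the block was joined from the same counts. The subterminal long arm had 23 and 132 intervals (0.225, 0.138 to 0.351), or a ratio of 0.340 with each called peak counted as 1. The terminal long arm had 366 and 529 (0.892, 0.778 to 1.02), a ratio of 1.13 with each called peak counted as 1 and 0.576 with only peaks of at least the median maximum. This comparison shares its lists with the treatment comparisons, so its values do not stand apart from theirs.

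Counts per window were ranked most alike between the untreated lists. Over the 37 windows of chromosome 2 with an interval in at least 1 list, Spearman's rho was 0.954 (Pearson's r 0.981) between untreated knockout and untreated wild type. It was 0.886 (r 0.879) between treated and untreated knockout, 0.644 (r 0.855) between treated and untreated wild type, and 0.526 (r 0.833) between treated knockout and treated wild type. Over the 382 such windows of the other chromosomes rho was 0.903, 0.883, 0.583 and 0.440 in the same order, and r was 0.948, 0.959, 0.365 and 0.249. Both pairs with treated wild type had the higher r on chromosome 2. These are descriptions over windows of single lists. Neighbouring windows are not independent, all windows of a list share its libraries and depth, and windows with no interval in any list do not enter.

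The island of the middle long arm was divided into 3 parts, which were chosen after the 1 Mb counts had been seen. In the inner part (170 to 174 Mb) treated knockout had 116 intervals, untreated knockout 109, treated wild type 81 and untreated wild type 84. In the central part (174 to 182 Mb) the same lists had 28, 20, 120 and 43 intervals, so that treated wild type had 4.42 times the share of untreated wild type (3.09 to 6.41) and treated knockout 0.301 times the share of treated wild type (0.192 to 0.457). In the outer part (182 to 190 Mb) they had 66, 52, 22 and 56 intervals. There the ratio was 2.12 (1.45 to 3.10) for treated over untreated knockout, 0.622 (0.362 to 1.03) for treated over untreated wild type and 3.87 (2.35 to 6.58) for treated knockout over treated wild type. For treated over untreated knockout the inner part had a ratio of 1.77 (1.35 to 2.33) and the central part 2.33 (1.27 to 4.37), so its 3 parts had overlapping intervals around the 1.93 of the whole island. For wild type the inner part had 1.53 (1.11 to 2.10), and the same 1.93 joined unlike parts. The window from 184 to 185 Mb, in the outer part, had 31 intervals for treated knockout, 27 for untreated knockout, 3 for treated wild type and 18 for untreated wild type.

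**Figure D3:**
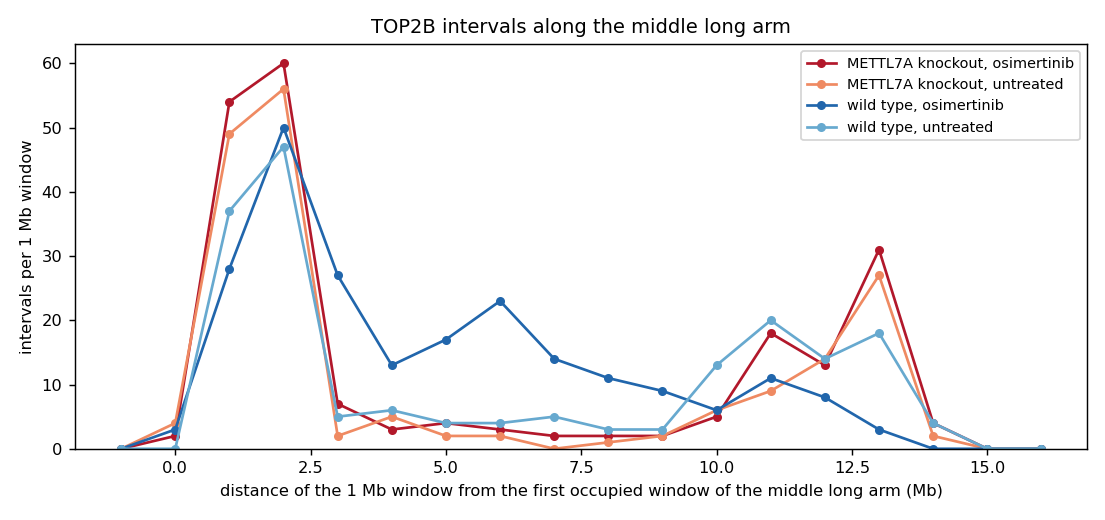
Number of intervals per 1 Mb window (y axis) along the middle long arm (x axis, distance in Mb from its first occupied window) in the 4 lists. All lists peak in the first 3 Mb; from 3 to 9 Mb the treated wild-type line lies above the others, with up to 27 intervals per window, and the outermost rise reaches 31 in treated knockout but 3 in treated wild type.

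Agreement of exact positions was next compared, since a block can hold similar numbers of intervals at different places. Overlap by 1 bp or more with any interval of the second list was taken as a counterpart. Of the 774 intervals of treated knockout, 75.1% (71.9 to 78.1) had no counterpart in treated wild type, beside 86.6% of the whole list. Conversely, 84.4% (82.3 to 86.4) of the 1208 treated wild-type intervals had none in treated knockout, beside 89.5%. Treated wild type had no counterpart in untreated wild type for 56.1% (53.3 to 58.9) of its chromosome 2 intervals, beside 71.3% of the whole list. In the reverse direction 77.7% of the 1955 untreated wild-type intervals had none, beside 85.2%. In these 2 comparisons chromosome 2 thus had the smaller part without a counterpart. Asking for 50% of each interval to overlap raised all shares. Treated knockout then had none in treated wild type for 87.5%, beside 94.1% of the whole list, and the reverse gave 92.0%, beside 95.4%. Treated wild type had none in untreated wild type for 93.2%, beside 95.4%, and the reverse gave 95.8%, beside 97.1%.

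Between the knockout lists it had the larger part. Treated knockout had no counterpart in untreated knockout for 66.7% (63.2 to 70.0) of its chromosome 2 intervals, beside 56.3% of the whole list, and 82.2% of the 1356 untreated knockout intervals had none in treated knockout, beside 76.6%. Untreated knockout had no counterpart in untreated wild type for 48.4% (45.7 to 51.1), an interval that takes in the 46.3% of the whole list, and in reverse the shares were 67.8% (65.7 to 69.8) and 64.9%. Under the 50% rule treated knockout had none in untreated knockout for 87.6%, beside 85.3%, and the reverse gave 92.9%, beside 91.2%. Untreated knockout had none in untreated wild type for 83.0%, beside 84.7%, and the reverse gave 88.2%, beside 87.5%. Without a replicate of a list, the difference between chromosome 2 and the rest could be set against counting error only. Width moved with these shares: of the treated wild-type intervals up to 1000 bp wide 36.5% had a counterpart in untreated wild type, and of those over 2000 and up to 3000 bp 61.5% did. The part of width in the differences between lists was not tested.

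Positions of treated wild type were shared mainly towards the end of the long arm and in the inner part of the middle long arm. In the terminal long arm 66.5% (62.3 to 70.6) of the treated wild-type intervals had a counterpart in untreated wild type, in the subterminal long arm 58.3% (49.4 to 66.8) and in the inner part of the middle long arm 42.0% (31.1 to 53.5). In the proximal long arm, where treated wild type had the higher share, 10.1% (6.28 to 15.2) of 198 intervals had one, and in the central part of the middle long arm 8.33% (4.07 to 14.8) of 120. The treated wild-type intervals in those places therefore mostly lay where the untreated list had none. Those blocks were chosen after their counts were seen, and with 63 and 43 untreated intervals few treated ones could have a counterpart. In reverse, 28.6% (17.9 to 41.3) of these 63 and 23.3% (11.8 to 38.6) of these 43 had one. This reverse share was 32.9% in the terminal, 27.8% in the subterminal and 32.1% in the inner middle long arm. It was 1.54% and 10.4% in the distal and the middle short arm. Of the 23 treated knockout intervals in the subterminal long arm, 60.9% (38.5 to 80.3) had a counterpart in untreated knockout. In the distal short arm 16.5% (10.1 to 24.8) of the 109 treated knockout intervals had a counterpart in untreated knockout and 1.83% (0.223 to 6.47) had one in treated wild type. Treated wild type had 24 intervals in this block. Between the untreated lists the distal short arm was also low: 27.3% (21.6 to 33.5) of the 231 knockout intervals had a counterpart in wild type there, against 64.6% in the terminal long arm. In the distal short arm, then, 72.7% of the untreated knockout intervals had no counterpart in untreated wild type, beside 46.3% of the whole list. In reverse 84.1% of the 389 untreated wild-type intervals had none, beside 64.9%. Untreated wild type covered 1008 kb of this block and 2691 kb of the terminal long arm, so there was less room for overlap in the distal short arm.

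**Figure D4:**
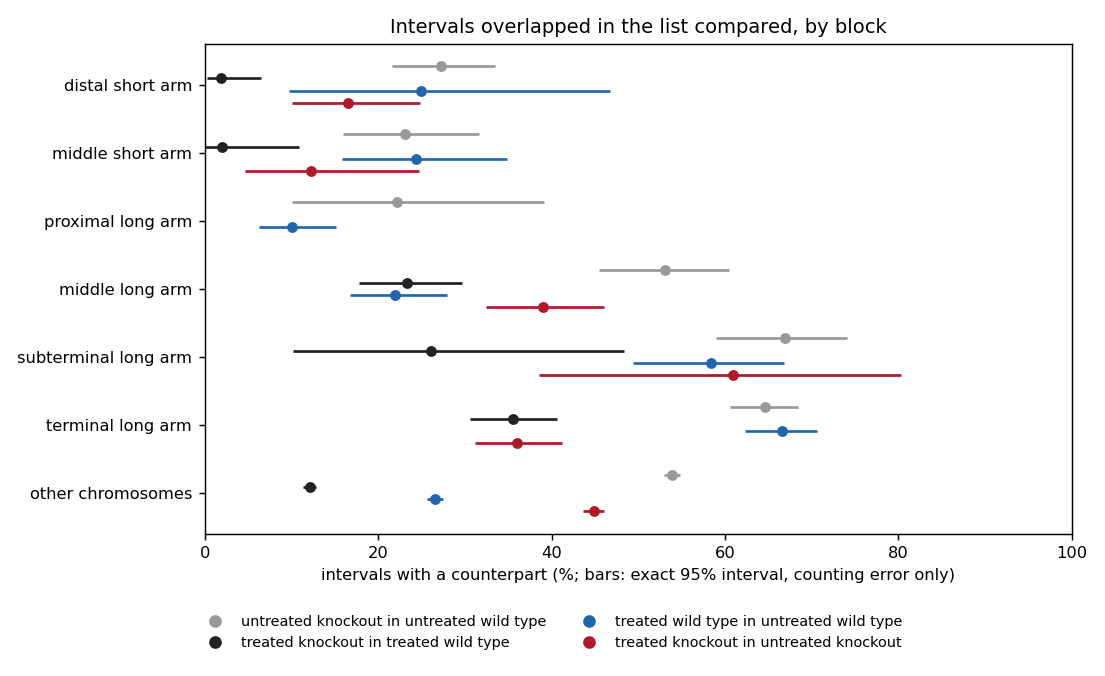
Percentage of intervals with a counterpart in the list compared (x axis) by block of chromosome 2 and for all other chromosomes (y axis), with exact 95% intervals for counting error, for the 4 comparisons; sets under 20 intervals are not drawn. The terminal long arm is at 66.5% for treated in untreated wild type, where the other chromosomes are at 26.5%, and the distal short arm is at 1.83% for treated knockout in treated wild type.

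When intervals that overlap or touch were merged over the 4 lists, chromosome 2 had 3377 regions. An interval of 1 list only made up 2358 of them (69.8%), and 621 held intervals of 2 lists, 284 of 3 lists and 114 (3.38%) of all 4. Of the regions of 1 list, 250 were for treated knockout, 536 for untreated knockout, 559 for treated wild type and 1013 for untreated wild type. Over all chromosomes 72.6% of 29000 regions were of 1 list, 17.4% of 2, 7.70% of 3 and 2.31% of all 4. The most common pair on chromosome 2 was untreated knockout with untreated wild type, with 268 regions. Regions missing in treated wild type but present in the other 3 lists numbered 99, and those missing in treated knockout alone numbered 125. Which lists made up a region was not counted over all chromosomes, and the lists differ in size. Whether these patterns are particular to chromosome 2 is thus not known. The 114 common regions lay mostly at the end of the long arm, where 82 of 1231 regions (6.66%, 5.33 to 8.20) were in all 4 lists. A further 8 of 319 were in the subterminal long arm and 18 of 173 (10.4%, 6.28 to 15.9) in the inner part of the middle long arm. The distal short arm had 0 of 626 (exact upper limit 0.588%), the middle short arm 0 of 374 (0.981%) and the proximal long arm 0 of 266 (1.38%). A region in all 4 lists needs an interval of the sparsest list. Treated wild type had 24 intervals in the distal short arm. Treated knockout had 49 in the middle short arm and 6 in the proximal long arm. The counts of 0 therefore do not stand apart from the block counts.

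The highest peaks of chromosome 2 were at the same place in every list, next to the centromere. The authors' maximum of a called peak is its highest coverage, and which replicate it comes from is not stated. The maximum is given here in multiples of the median maximum of its own list. It belongs to the called peak, and its position lay outside the deposited interval for 48.4% of chromosome 2 intervals for treated knockout, 13.1% for untreated knockout, 71.0% for treated wild type and 48.5% for untreated wild type. In treated knockout the peak at 92323401 to 92325500 reached 6.50 times the median and the peak at 92319751 to 92321050 reached 4.25 times. In untreated knockout the peaks at 92323451 to 92325400 and 92318651 to 92321250 reached 5.80 and 3.20 times. In treated wild type 1 called peak at 92319201 to 92325350 reached 5.91 times and was split into 3 intervals. In untreated wild type the peaks at 92323551 to 92325400 and 92319701 to 92321750 reached 4.67 and 4.08 times. The next interval of any list began 3.33 Mb further on, at 95659501, on the far side of the centromere, which in this build is a gap in the assembly flanked by satellite repeats. How reads map beside this gap, and whether libraries of the H2A antibody are also high there, was not examined.

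Away from the centromere, no called peak exceeded 2.50 times its list's median maximum. The highest on the long arm were 2.50 times the list median in treated knockout, at 184862401 to 184863650, and 2.4 times in untreated knockout, at 173092301 to 173100700. In treated wild type peaks reached 2.0 times at 222262601 to 222344550 and at 224809451 to 224810450, the second with its maximum outside this interval, and in untreated wild type the highest was 1.67 times, at 183933151 to 183935450. On the short arm before the pericentromeric peaks no maximum exceeded 1.63 times in treated knockout, 1.60 in untreated knockout, 1.36 in treated wild type or 1.42 in untreated wild type. Over all chromosome 2 intervals the median maximum was 1.00 times that of the list in both knockout lists, 1.09 times in treated wild type and 0.917 times in untreated wild type.

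**Figure D5:**
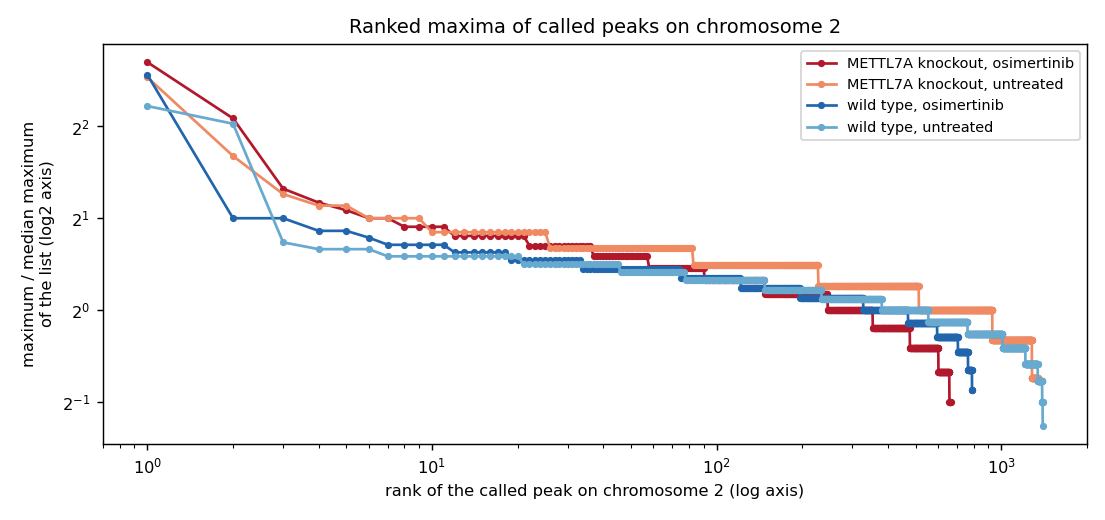
Maximum of each called peak on chromosome 2 in multiples of its list's median maximum (y axis, log2 scale), by rank (x axis, log scale), in the 4 lists. The first ranks, the pericentromeric peaks at 3.20 to 6.50 times the median, stand apart from the rest, which begin at 1.67 to 2.50 times.

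Broad called peaks were cut into several intervals, mostly in wild type. On chromosome 2, 26.2% of the treated knockout intervals, 1.62% of the untreated knockout intervals, 54.7% of the treated wild-type intervals and 46.4% of the untreated wild-type intervals were pieces of a split peak. The peak with the most pieces lay in the subterminal long arm in both wild-type lists. In treated wild type it gave 15 intervals over at least 82.0 kb (222262601 to 222344550), and in untreated wild type 12 intervals over at least 91.6 kb (222259851 to 222351450). In treated knockout the peak with the most pieces had 10, over 30.3 kb in the inner part of the middle long arm (172942901 to 172973200), and no peak of untreated knockout had more than 2. Of the regions common to all lists, the one ranked next after the pericentromeric pair lay in this subterminal stretch, at 222337051 to 222347650, with 1.75 times the list median for treated knockout, 1.60 for untreated knockout, 2.0 for treated wild type and 1.33 for untreated wild type.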

How the data were processed

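TOP2B CUT&RUN intervals of chromosome 2 were compared between 4 conditions of PC9 cells. The submitters' processing notes name GRCh37 as the build and list SEACR, a peak caller for sparse data, bedtools 2.30, deepTools 3.5.1, SAMtools 1.16, Bowtie2 2.4.2, FastQC and Trimmomatic. Caller settings, control and handling of duplicates are not stated there. The deposited lists have no header, and their columns were identified from their values: a position, the area of the called peak and its maximum, which are a deposited signal of unknown scaling, and the region of the maximum. Starts and ends on chromosome 2 lie on a grid of 50 bp. By its name, each list intersects the peaks of both replicates. How they were intersected, and which replicate the area and the maximum come from, is not stated. The labels give 20000000 paired-end reads per library, taken here as a planned number and not as a measured depth. The 8 samples of the H2A antibody were not analysed here, and the lists themselves give no depth.

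Intervals that share area, maximum and region of the maximum were taken as pieces of 1 called peak. Windows, share ratios, counterparts and merged regions were computed as described with the results, with Python 3.11.15, pandas 2.3.3, numpy 2.4.6 and scipy 1.17.1, on the whole lists. Window calls by unscaled numbers and the finding of counterparts were tested on simulated data. The scaling to list shares, the merged regions and the confidence intervals were not. The 95% confidence intervals are Clopper-Pearson intervals for a share and exact conditional ones for a ratio. A count of 0 was read as up to 3 or given with its exact upper limit. Intervals that neighbour each other are not independent. For each comparison the 3 highest and 3 lowest window ratios, and for each list the 5 fullest windows and 3 highest called peaks, were named by rule. Of the regions common to all 4 lists, the rule named the 3 whose lowest within-list percentile of the maximum was highest. The members, lists and rules were chosen with earlier results of these data known. Alternatives changed what was counted, the window, the threshold on peaks, the scaling and the overlap required. The threshold on peaks was applied to intervals by the maximum of their called peak, so each piece of a split peak counted. Its median was taken over the intervals of the list.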

Additional observations from a re-analysis of the deposited data

Results flagged for a closer look

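The share of the proximal long arm (95 to 130 Mb) differed between the treated and the untreated list in opposite directions in the 2 genotypes, each by more than 2-fold. In knockout cells it was 0.278 times that of the untreated list (6 and 36 intervals), and in wild-type cells 4.97 times (198 and 63 intervals). The difference between genotypes was not tested, since each condition has 1 list, and the block was joined after its counts had been seen. With each called peak counted as 1 the ratios were 0.340 in knockout cells and 4.10 in wild-type cells. DNA copy number and the H2A libraries were not examined, and the cause of the difference was not tested.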

How the results depend on the processing

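The 9 windows past 2-fold between the treated lists and the 10 between treated and untreated wild type stayed within 1.5 times of those counts under all 10 alternatives. For treated against untreated knockout, 3 windows, all lower, became 5 by covered length (1 higher), 6 with called peaks of at least the median maximum (2 higher), 6 with a minimum of 10 intervals (1 higher) and 9 by number of intervals (0 higher). For the untreated lists 1 window became 2 by called peaks, 2 with peaks of at least the median maximum (both higher in the knockout), 0 in windows of 2.5 and of 10 Mb, 2 with windows starting 2.5 Mb later, 2 with a minimum of 10, and 4 by number. With peaks of at least the median maximum the share on chromosome 2 became 8.90% for treated knockout, 10.1% for untreated knockout, 14.4% for treated wild type and 12.04% for untreated wild type. It became 9.95% in untreated knockout and 11.6% in untreated wild type by covered length, and 13.3% in untreated wild type by called peaks.

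Shares without a counterpart are given in the order treated knockout in treated wild type and reverse, treated in untreated wild type and reverse, treated in untreated knockout and reverse, untreated knockout in untreated wild type and reverse. An overlap of 50% of both gave 87.5, 92.0, 93.2, 95.8, 87.6, 92.9, 83.0 and 88.2%, and widening by 1000 bp gave 60.9, 74.8, 41.9, 68.8, 47.7, 71.6, 34.1 and 56.5%. By called peaks the first became 70.2%, the fourth 74.3%, the seventh 45.1% and the eighth 64.1%. With peaks of at least the median maximum the second became 86.9%, the third 60.2%, the fourth 73.7%, the sixth 86.7%, the seventh 59.8% and the eighth 64.6%. Regions in all 4 lists numbered 49 with such peaks.

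No block or named window counted as past 2-fold changed direction under the alternatives run. Untreated knockout over untreated wild type at 70 to 75 Mb, at 0.489 without and 0.507 with the added count, turned to 2.58 on the log2 scale with peaks of at least the median maximum. With peaks of at least the median maximum, which kept 51.9 to 74.2% of the intervals of a list, untreated knockout over untreated wild type became 2.12 in the middle short arm and 2.99 in the proximal long arm, and treated over untreated wild type in the proximal long arm 36.4. No confidence interval was computed for these ratios, and those of the proximal long arm rest on few untreated wild-type intervals. The cause of these changes was not tested. No paired analysis was possible because each list joins both replicates, and no replicate could be left out for the same reason. Without the depth of the libraries, a lower number of intervals cannot be told from lower sensitivity.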

Other observations

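The outer edge of the middle long arm island and, in 3 lists, its inner edge lay close together. Its first interval began at 171672401 in treated knockout, 171672651 in untreated knockout and 171676601 in treated wild type, but at 172394451 in untreated wild type. Its last interval ended at 185211750 for treated knockout, 185082400 for untreated knockout, 184884000 for treated wild type and 185252450 for untreated wild type. In the central part of the island, 0 of 28 treated knockout intervals overlapped one of the 20 untreated knockout intervals (exact upper limit 12.3%, and 10.7% from 3 counts). Those 20 covered 29.75 kb between 174 and 182 Mb, which left little room for overlap. Such an overlap was found for 33.3% on the whole chromosome, but for 16.5% in the distal and 12.2% in the middle short arm, which are also sparse. The central part's share of the list was 2.33 times as high in treated as in untreated knockout (1.27 to 4.37), or 1.19 times with called peaks of at least the median maximum. The stretch from 215 to 220 Mb, which borders the subterminal long arm, held 2 intervals of treated knockout, 6 of untreated knockout, 7 of treated wild type and 19 of untreated wild type.

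Median width changed little along the chromosome within a list. In the distal short arm and the terminal long arm, in this order, it was 1050 and 1200 bp in treated knockout, 1600 and 1650 bp in untreated knockout, 1150 and 1200 bp in treated wild type, and 2450 and 2750 bp in untreated wild type.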
